A study of Mus musculus with 24 samples.

Results

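The 6 microRNAs (miRNAs) described here, mmu-miR-142a-3p, mmu-miR-142a-5p, mmu-miR-150-5p, mmu-miR-223-3p, mmu-miR-146a-5p and mmu-miR-155-5p, are known from cells of the immune system and were chosen by name out of the 1881 mouse miRNAs on the array. They were followed in mouse liver over all 8 conditions of a study on miRNA array signals in damaged RNA. The livers of 3 male mice, numbered 7, 10 and 9 in the labels, were each divided, and every mouse gave 1 array per condition, 24 arrays in all. The study's methods do not state the strain of these mice. They name an Il1a knock-out strain for the mice of a separate storage time course. Total RNA, small RNAs included, was isolated with or without DNase digestion from tissue preserved at once (0 h) or left at room temperature for 96 h, which makes 4 groups. The other 4 groups hold RNA from tissue preserved at once that was digested with DNase and prepared so as to deplete small RNAs. One of them was hybridized untreated, and in the others 3 µg of RNA was incubated for 30 min at 37 °C with 0, 0.026 or 0.67 U of RNase and isolated again. The depletion is not complete by the study's own description, so these groups are no zero control. For mouse 9 the labels disagree on which array had which of the RNase doses, and the sample descriptions, which the RNA integrity numbers follow, were used. The total detected signals point the other way, with 177642 units on its array taken as 0.026 U and 70313 on that taken as 0.67 U, whereas mice 7 and 10 had more at 0.67 U.

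Liver is made up mainly of hepatocytes, with resident macrophages, passing blood leukocytes, endothelium and stroma between them. The hairpin of miR-142 is transcribed in nearly all blood-forming lineages and gives a functional miRNA from each arm. miR-223 is abundant in neutrophils and other myeloid cells, and miR-150 in mature lymphocytes. miR-146a and miR-155 are both induced when immune cells are activated through NF-κB, where miR-146a acts as a brake on Toll-like receptor signalling and miR-155 is processed from the BIC transcript and promotes the inflammatory response. In whole tissue, fewer cells of a type and less RNA per cell cannot be told apart.

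RefSeq's table for GRCm38.p6 holds the mature sequences of 5 of the 6 miRNAs. They are shown here with the seed (bases 2 to 8, which pairs with targets) in capitals. The seeds are compared below, and base composition is set beside the storage changes further on.
mmu-miR-142a-3p: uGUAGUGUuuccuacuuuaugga
mmu-miR-142a-5p: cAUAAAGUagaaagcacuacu
mmu-miR-223-3p: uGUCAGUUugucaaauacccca
mmu-miR-146a-5p: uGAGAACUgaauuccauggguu
mmu-miR-155-5p: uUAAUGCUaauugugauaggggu
Both arms of Mir142 lie on the plus strand of chromosome 11, the 5p arm at chr11:87756867-87756887 and the 3p arm at chr11:87756903-87756925. The miR-146a arm lies on the minus strand of the same chromosome at chr11:43374435-43374456, miR-223-3p on the plus strand at chrX:96242884-96242905 and miR-155-5p on the plus strand at chr16:84714143-84714165. No 2 of these 5 share a seed. The only mature miRNA in the table with a member's seed was mmu-miR-146b-5p, which differs from mmu-miR-146a-5p at 2 positions near the 3′ end, and mmu-miR-142b is read from the strand opposite mmu-miR-142a-3p and is complementary to it over all of its 20 bases.
mmu-miR-146b-5p: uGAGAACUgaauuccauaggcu
mmu-miR-142b: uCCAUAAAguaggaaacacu
Neither of these was detected on any of the 24 arrays, so no signal of a relative with the same seed or of the antisense hairpin accompanied the members' signals.

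The arrays differed strongly in how much they detected. RNA integrity numbers were 8.8 to 9.0 in the groups at 0 h, 2.3 to 2.5 at 96 h, 9.0 to 9.4 in depleted RNA without RNase, 6.0 to 7.0 at 0.026 U and 2.4 to 2.9 at 0.67 U. Between 273 and 342 miRNAs were detected on an array at 0 h, 582 to 707 at 96 h and 186 to 238 in depleted RNA without RNase. Normalization scaled the 96 h arrays down, to a mean scale of -1.43 (with DNase) and -1.30 (without) on the log2 axis against 0.40 and 0.38 at 0 h. The spike-in controls spanned only 0.466 over all arrays, so this scaling deepens the falls at 96 h beyond those after spike-in scaling. Changes are therefore given on the glog2 scale of variance stabilizing normalization (vsn), on which 1 is a doubling for bright signals, and also after scaling to the spike-ins where that alters the picture.

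Before storage miR-142a-3p, miR-223-3p and miR-146a-5p were detected in every mouse and followed 1 order of mice. At 0 h with DNase, miR-142a-3p gave signals of 18.5, 61.4 and 30.3 intensity units in mice 7, 10 and 9, miR-223-3p gave 22.9, 45.2 and 29.5, and miR-146a-5p gave 12.7, 27.4 and 22.7. Mouse 10 was highest and mouse 7 lowest for each of them. The total detected signal of these arrays had the same order, at 55237, 109374 and 92287 units in mice 7, 10 and 9. So did the hepatocyte miRNA miR-122-5p, at 6767, 12120 and 11370 units. The part of total signal in this order was not tested. The partner arm miR-142a-5p followed the same order at 2.19, 9.50 and 3.57, and was below detection in mouse 7. miR-150-5p, the lymphocyte miRNA, was at the edge of detection with 1.38, 2.62 and 1.76, detected in mice 10 and 9 only. miR-155-5p was not detected, at 1.02, 1.31 and 1.39. Without DNase, again at 0 h, mouse 10 was the highest for all 6 miRNAs and in total detected signal, at 163493 units. miR-155-5p was again not detected in any mouse. Over all 24 arrays miR-223-3p was detected on 24, miR-146a-5p on 15, miR-142a-3p on 8, miR-155-5p on 8, miR-142a-5p on 5 and miR-150-5p on 3, so that all but miR-150-5p passed the filter of 5 arrays and were among the 631 miRNAs tested.

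**Figure D1:**
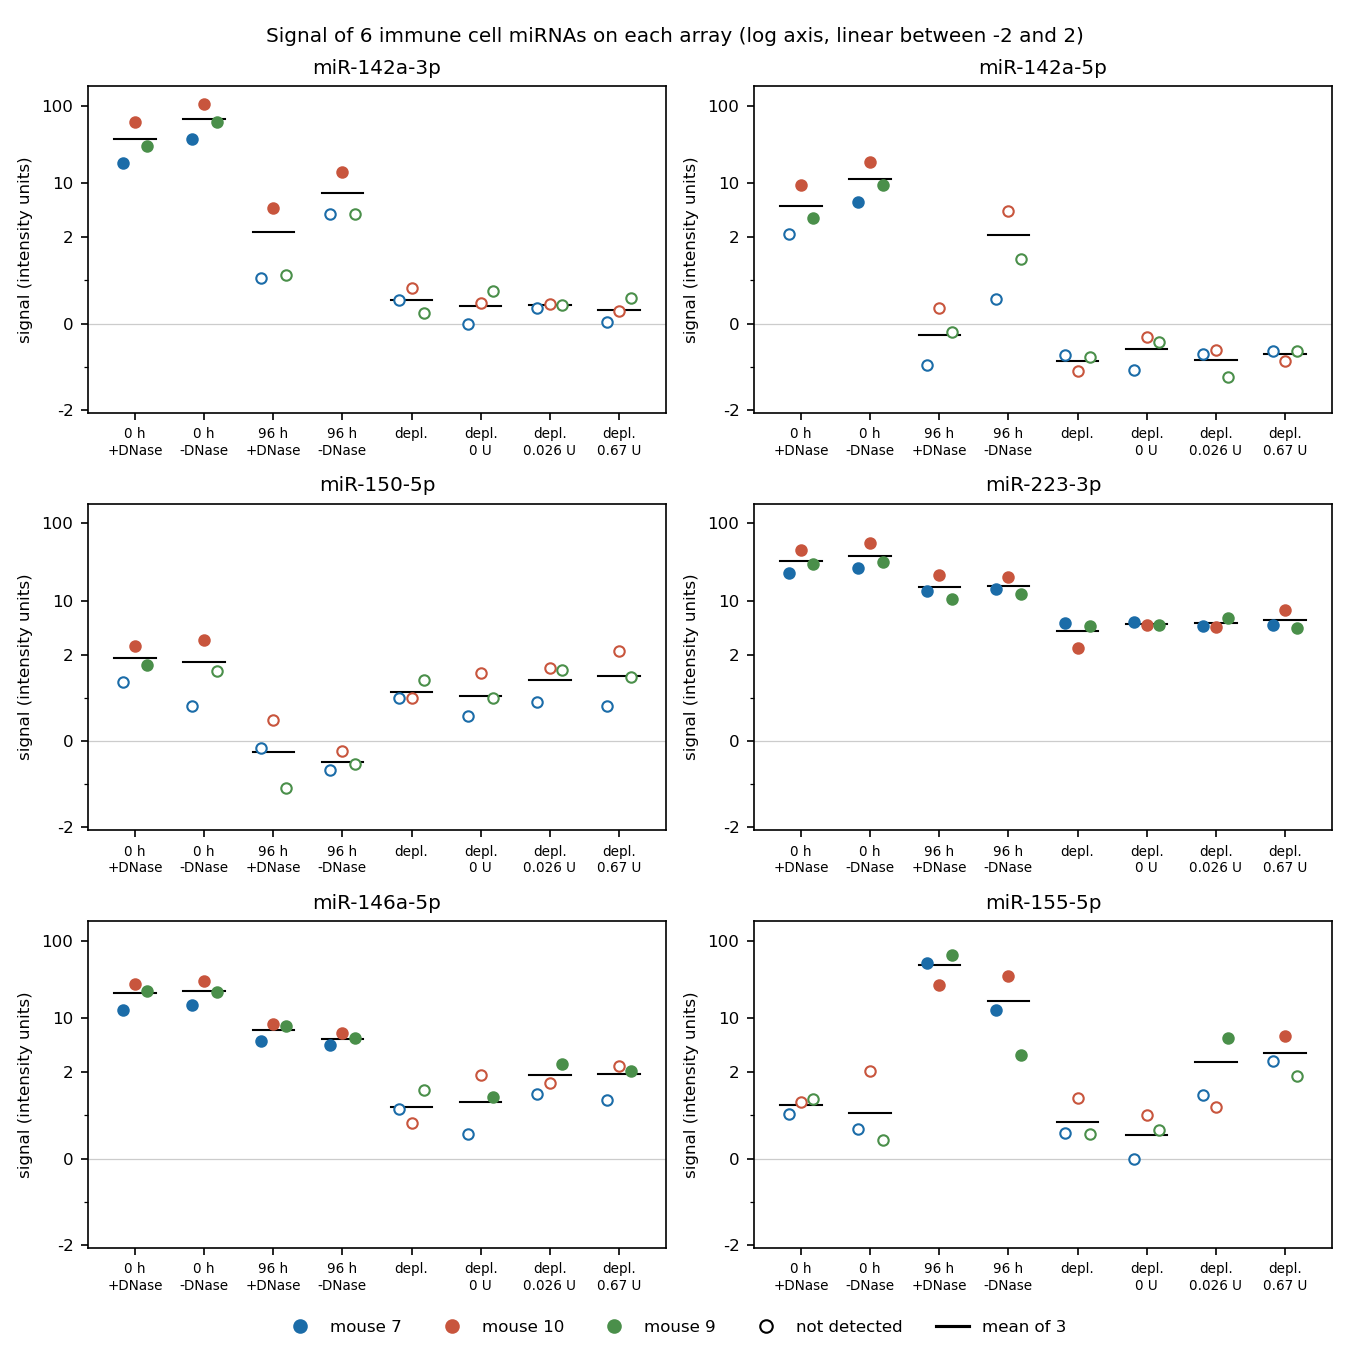
Background-subtracted signal of each miRNA on each of the 24 arrays, in intensity units on a log axis that is linear between -2 and 2, with filled points where it was detected, open points where it was not and a line at the mean of 3 mice. The signals of miR-142a-3p, miR-223-3p and miR-146a-5p step down from 0 h to 96 h to depleted RNA, whereas miR-155-5p is highest at 96 h, from 26.7 to 66.0 with DNase.

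Storage of the tissue separated the tested members into a larger set that fell and a single one that rose. With DNase, 4 of the 5 tested members were called lower at 96 h than at 0 h and 1 was called higher, where a call needs a Benjamini-Hochberg adjusted p under 0.05 in limma and a glog2 change of 1 or more in size. Among all 631 tested miRNAs 21.6% were called lower and 60.4% higher, with a median change of 2.47. Without DNase the members divided in the same way, against 23.0% lower and 60.5% higher among all tested and a median of 2.16. The arrays of one storage comparison are not those of the other, but they come from the same mice. The filter was not neutral to direction. miR-142a-5p was detected only at 0 h, on 2 arrays with DNase and 3 without. miR-155-5p would not have passed without its 96 h detections, 3 under each preparation. Each was tested only through the groups where it was higher, so their directions are not independent of the filter. The 96 h arrays detected more miRNAs, so the filter also bears on the shares called over all tested.

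miR-142a-3p fell furthest. Its 96 h signals with DNase were 1.06, 4.77 and 1.13 in mice 7, 10 and 9, detected in mouse 10 only, and every one lay below the lowest signal at 0 h. The value of mouse 10 counts a single probe and leaves out the undetected one, at 2.76 units. The change of miR-142a-3p was -5.10 ± 0.50 (SE, n = 3 against 3, adjusted p = 1.71e-08), and only 5 of the 631 miRNAs fell more. Without DNase the 96 h signals were 4.01, 14.1 and 4.0 against 36.8, 106 and 61.3 at 0 h, again detected in mouse 10 only, and the change was -4.73 ± 0.50 (adjusted p = 4.69e-08). The partner arm miR-142a-5p was detected at 96 h in no mouse under either preparation. Its change was -3.81 ± 0.671 (adjusted p = 2.61e-05) with DNase and -3.46 ± 0.671 (adjusted p = 7.70e-05) without. Against the lowest detected signal of each array as a floor, it was at least 2.83-fold lower with DNase, where 2 of 3 arrays at 0 h detected it, and at least 4.59-fold lower without, both after spike-in scaling. The vsn scale, which lowers the 96 h arrays, raises these ratios to 10.12 and 15.3, so their size rests on the scaling. In each comparison all 3 mice had both arms lower at 96 h.

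miR-223-3p and miR-146a-5p also fell but stayed detectable on every stored array. The myeloid miR-223-3p had signals of 13.2, 21.3 and 10.4 at 96 h with DNase and 13.98, 20.1 and 12.2 without, all below the lowest value at 0 h, 22.9. Its change was -2.85 ± 0.342 (adjusted p = 2.12e-07) with DNase and -2.84 ± 0.342 (adjusted p = 2.53e-07) without. The feedback miRNA miR-146a-5p had 5.05, 8.41 and 8.02 with DNase and 4.47, 6.42 and 5.51 without, also below all values at 0 h. These stored values count a single probe, whereas those at 0 h add up both, which enlarges the fall. The probe left out averaged 1.48 units at 96 h with DNase and 0.829 without. It changed by -3.11 ± 0.334 with DNase (adjusted p = 5.16e-08) and by -3.40 ± 0.334 without (adjusted p = 1.78e-08). The size of these falls depended on the scaling. After spike-in scaling miR-223-3p changed by -1.12 and miR-146a-5p by -1.50 with DNase, both still called lower, while miR-142a-3p changed by -4.17. miR-150-5p was detected on no stored array, with signals between -1.08 and 0.482.

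miR-155-5p was the member that went the other way. With DNase its signals at 96 h were 51.8, 26.7 and 66.0 in mice 7, 10 and 9, the highest of any condition on average, and none of the 6 arrays at 0 h detected it. Its change was 2.78 ± 0.477 (adjusted p = 1.90e-05), higher in 3 of 3 mice and at least 10.3-fold, or at least 36.9-fold after spike-in scaling. On the vsn scale this change lay 0.31 above the median of all tested miRNAs, with 295 of 631 rising more, and after spike-in scaling it lay 1.77 above, with 168 rising more. It was not called under vsn fitted on the tested miRNAs alone (0.83, adjusted p = 0.0659). Both probes of miR-155-5p behaved alike, with mean signals of 23.0 ± 9.28 and 25.1 ± 10.6 (SD, n = 3) and all 45 spots of each well above background. At 0 h with DNase no spot of either probe was well above background. The other arm of the hairpin, miR-155-3p, was detected on none of the 24 arrays.

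Without DNase the rise of miR-155-5p was smaller and uneven. Its 96 h signals were 12.9, 34.6 and 3.34 in mice 7, 10 and 9, so that mouse 9, highest with DNase, was lowest without. The value of mouse 9 counts a single probe and leaves out the undetected one, at 2.64 units. The change was 1.28 ± 0.477 (adjusted p = 0.0174), at least 2.99-fold, and 0.88 below the median of all tested. The call rested on mice 7 and 10. It was lost without mouse 7 (adjusted p = 0.158) and without mouse 10 (adjusted p = 0.0686), and under vsn fitted on the tested miRNAs alone the change turned to -0.58. Within each preparation the order of the mice in miR-155-5p was their order in the total detected signal of the same arrays, 199478, 245927 and 362324 units for mice 10, 7 and 9 with DNase and 187378, 195914 and 260481 units for mice 9, 7 and 10 without. The part of total signal in this result was not tested.

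**Figure D2:**
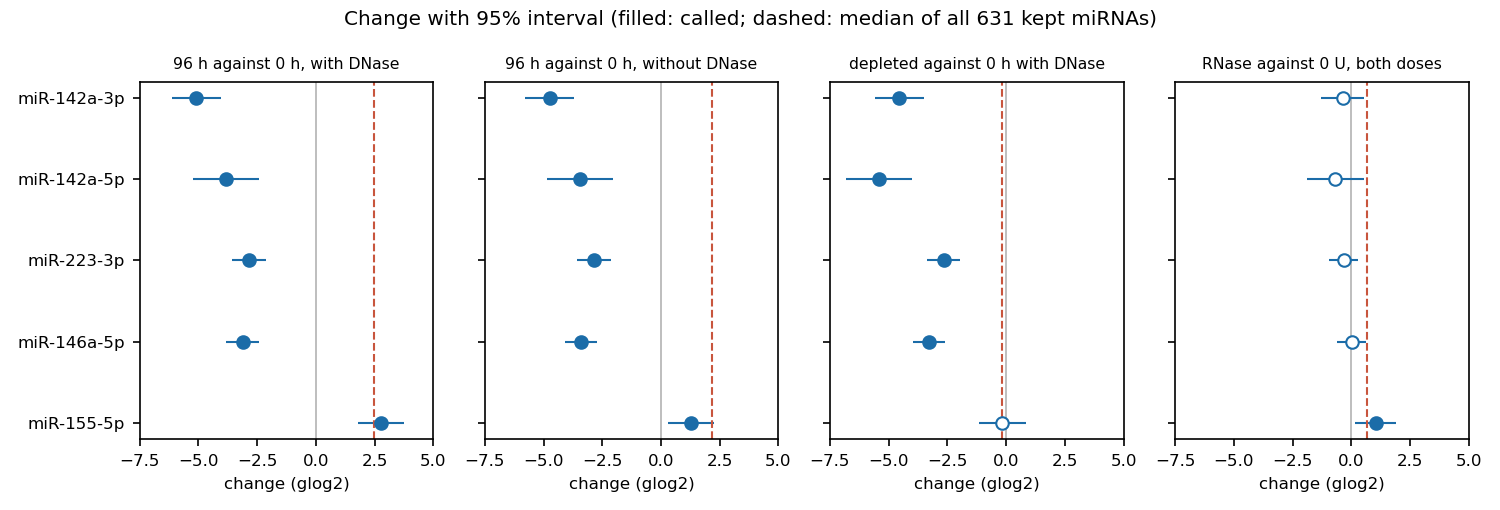
Change of each tested member on the glog2 scale with its 95% interval from limma in 4 comparisons, filled where called, with a dashed line at the median of all 631 tested miRNAs. After storage miR-142a-3p, miR-142a-5p, miR-223-3p and miR-146a-5p lie between -5.10 and -2.84 while the dashed lines lie at 2.47 and 2.16, and miR-155-5p lies at 2.78 and 1.28. Under vsn fitted on the tested miRNAs alone the last value turned to -0.58.

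Leaving out DNase in fresh tissue led to no calls but came with a higher total detected signal. This was 131979 to 163493 units at 0 h without DNase against 55237 to 109374 with it. At 0 h no member was called by limma, none had an unadjusted p under 0.05, and 0.0% of all 631 miRNAs were called although 30 had an unadjusted p under 0.05. Both arms of miR-142a were nevertheless higher without DNase in each of the 3 mice, with a change of 0.91 (95% interval -0.14 to 1.95) for the 3p arm and of 1.12 (-0.28 to 2.52) for the 5p arm. For miR-223-3p and miR-146a-5p the changes were 0.19 and 0.10. At 96 h, where 10.8% of all tested miRNAs were called in either direction, miR-155-5p was the 1 member called, lower without DNase by -1.67 ± 0.477 (adjusted p = 0.0268). It was lower in 3 of 3 mice, but by 0.08 only in mouse 10, and the call was lost without mouse 7 (adjusted p = 0.465) or without mouse 9 (adjusted p = 0.702). miR-142a-3p was higher without DNase by 1.27 (adjusted p = 0.118), a difference that was called without mouse 10 (1.47, adjusted p = 0.0238) and after spike-in scaling (1.84, adjusted p = 0.0185). The difference between the storage effects with and without DNase was itself tested. No member passed, miR-155-5p coming nearest at -1.50 ± 0.675 (adjusted p = 0.313, unadjusted p = 0.0377), and 1.11% of all tested miRNAs were called.

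After depletion of small RNAs neither arm of miR-142a nor miR-146a-5p was detected in untreated RNA of any mouse, and miR-223-3p was lower. Against total RNA at 0 h with DNase, which also serves as the control of one storage comparison, 4 of 5 tested members were called lower and none higher. Among all tested miRNAs 24.4% were called lower and 5.39% higher, with a median change of -0.17. In untreated depleted RNA miR-142a-3p was not detected, with signals of 0.540, 0.836 and 0.239, at least 30.1-fold lower than at 0 h. miR-146a-5p was not detected either, at 1.14, 0.826 and 1.60, at least 14.7-fold lower. For miR-142a-5p, which 2 of 3 arrays at 0 h detected, the bound was 3.89-fold, and miR-150-5p was not detected on any depleted array. miR-155-5p, undetected on both sides, has no fold, and its change of -0.16 turned to 1.60 (called higher, adjusted p = 0.00741) when arrays were scaled by the 75th percentile over those miRNAs that every array detected, called upper-quartile scaling below.

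miR-223-3p was the member that persisted through depletion. It was detected on all 12 depleted arrays, with signals of 5.14, 2.45 and 4.69 in mice 7, 10 and 9 before any incubation. The value of mouse 10 counts a single probe, since the scanner software left the undetected one out. Of the 45 spots per probe, 6 and 12 were well above background in untreated depleted RNA. The counts were 19 and 31 at 0 U, 2 and 23 at 0.026 U, and 7 and 31 at 0.67 U. The change from total RNA was -2.66 ± 0.342 (adjusted p = 2.21e-06), and it was no longer called after upper-quartile scaling (-0.76, adjusted p = 0.134). Incubation at 0 U gave 5.28, 4.84 and 4.80. At 0.026 U the signals were 4.68, 4.63 and 6.02 and at 0.67 U they were 4.88, 7.67 and 4.45, so the ranges overlapped among all 4 depleted groups. No member was called for the incubation at 0 U, where none had an unadjusted p under 0.05 and 1.74% of all tested miRNAs were called.

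RNase treatment of depleted RNA left miR-142a-3p, miR-142a-5p and miR-150-5p undetected, and miR-155-5p was the 1 member called. With both doses set against 0 U, 44.7% of all tested miRNAs were called higher, and miR-155-5p rose by 1.03 ± 0.414 (adjusted p = 0.0456), in 3 of 3 mice and against a median of 0.69. At 0.67 U it rose by 1.18 ± 0.477 (adjusted p = 0.0485), with 44.8% of all called higher. At 0.026 U no member was called and none had an unadjusted p under 0.05, with 36.8% of all called in either direction, and the change of miR-155-5p was 0.89 (95% interval -0.11 to 1.88). Its signals were 2.81, 5.91 and 1.91 in mice 7, 10 and 9 at 0.67 U and 1.47, 1.20 and 5.56 at 0.026 U, against -0.0228, 1.0 and 0.674 at 0 U. Only the array of mouse 10 at 0.67 U and that of mouse 9 at 0.026 U detected it. These had the highest total detected signals of the 6 RNase arrays, 168514 and 177642 units against 36325 to 83451 on the others, and the part of total signal was not tested. The call for both doses was lost without mouse 7 (adjusted p = 0.389) and without mouse 9 (0.0785), and that at 0.67 U without mouse 7 (0.414) and without mouse 10 (0.0525). By the doses in the titles of mouse 9, the change was 1.41 at 0.67 U and 0.66 at 0.026 U. After spike-in scaling the change for both doses was 1.48 and was not called (adjusted p = 0.0584). For miR-223-3p the RNase change was -0.32 (95% interval -0.94 to 0.30) on the vsn scale, 0.12 after spike-in scaling and -1.66 (called) after upper-quartile scaling, so its direction follows the scaling. miR-146a-5p was detected in mouse 9 only, at 1.44, 2.57 and 2.09 units for 0, 0.026 and 0.67 U, each from a single probe, and was not called.

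Stored tissue and untreated depleted RNA, in which miR-142a-3p, miR-223-3p and miR-146a-5p were both times called lower than at 0 h, were also set against each other, with DNase on both sides. miR-155-5p was higher in stored tissue by 2.94 ± 0.477 (adjusted p = 1.16e-05), at least 11.01-fold, where 61.6% of all tested miRNAs were called higher, 7.77% lower and the median change was 2.65. miR-142a-5p was also called higher (1.61, adjusted p = 0.0353), but no array of either group detected it. The call thus compares undetected signals, from -0.955 to 0.371 units in stored and from -1.09 to -0.733 in depleted RNA. This call was lost without mouse 10 (adjusted p = 0.248) and without mouse 9 (adjusted p = 0.0777). The other 3 members were not called, and their direction turned with the scaling. miR-142a-3p changed by -0.54 on the vsn scale, by 0.81 after spike-in scaling and by -1.17 (called) after upper-quartile scaling, and by -2.56 (called) under vsn fitted on the tested miRNAs alone. miR-223-3p changed by -0.18 on the vsn scale, by 1.62 after spike-in scaling and by -3.09 after upper-quartile scaling, the last 2 both called. miR-146a-5p changed by 0.17, 2.35 and -2.23 in the same order, the last 2 again both called. In unscaled intensity units all 3 signals of each were higher in stored than in depleted RNA. For miR-142a-3p only the stored array of mouse 10 detected it, so the other values compare undetected signals.

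**Figure D3:**
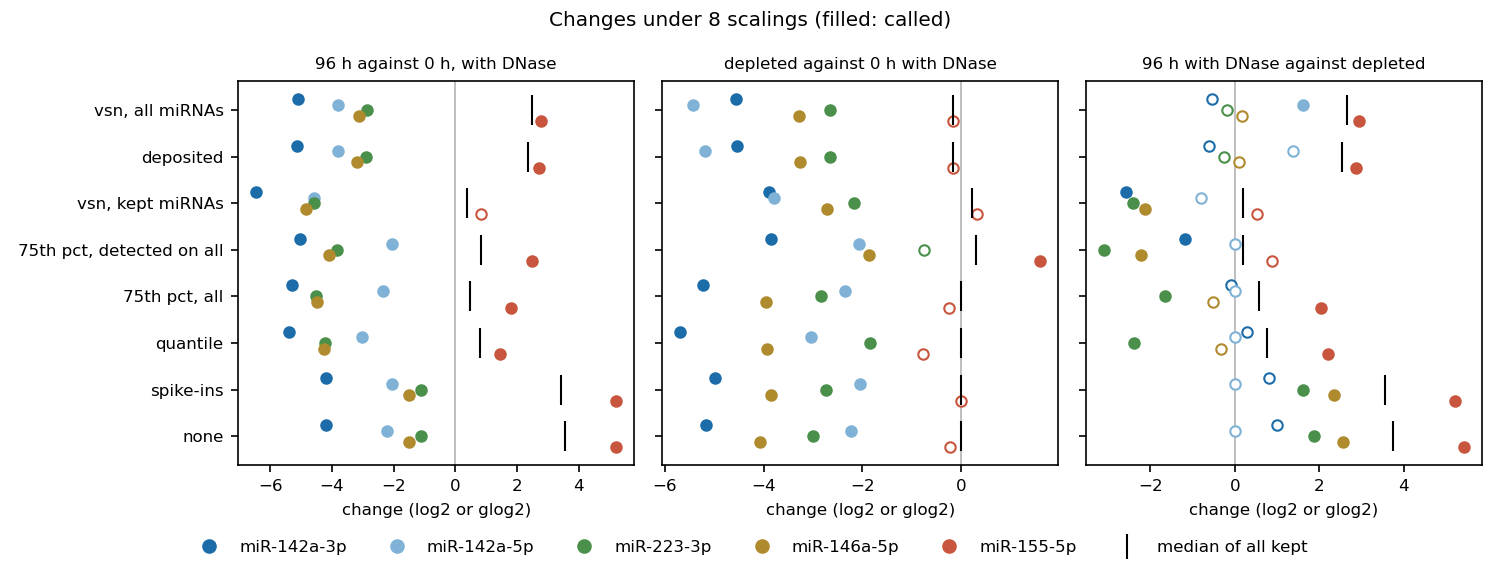
Change of each tested member under 8 ways of scaling the arrays in 3 comparisons, on a log2 or glog2 axis, filled where called, with a black tick at the median of all tested miRNAs. The falls of miR-142a-3p, miR-142a-5p, miR-223-3p and miR-146a-5p after storage keep their side of 0 under all 8, whereas in the comparison of stored with depleted RNA miR-223-3p runs from -3.09 to 1.88.

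The groups were also put in order by their mean signal in unscaled intensity units. For miR-142a-3p, miR-223-3p and miR-146a-5p both groups at 0 h came first and overlapped each other, both groups at 96 h came next and overlapped each other, and the 4 depleted groups came last and overlapped their neighbours in the order, with gaps between these blocks. For miR-142a-3p the gap between stored and depleted RNA lay between undetected signals, 1.06 (mouse 7, 96 h with DNase) and 0.836 (mouse 10, untreated depleted RNA). On the vsn scale the gap between stored and depleted RNA was not seen, with group means of 0.36 at 96 h with DNase and 0.89 in untreated depleted RNA for miR-142a-3p, 2.55 and 2.73 for miR-223-3p, and 1.65 and 1.48 for miR-146a-5p. For miR-142a-5p the range at 96 h without DNase, all undetected, reached 4.32 and overlapped that at 0 h with DNase, whose lowest signal was 2.19, and the group at 96 h with DNase lay apart below both. For miR-150-5p the means at 0 h, 1.92 ± 0.639 with DNase and 1.83 ± 1.15 without (SD, n = 3), were the highest but overlapped the undetected signals in depleted RNA, and the groups at 96 h lay apart below these. For miR-155-5p the order started with 96 h with DNase (48.1 ± 19.9, SD, n = 3) and 96 h without (16.9 ± 16.0), whose ranges overlapped, and every further pair of neighbours overlapped too.

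The 5 sequences shown above are poor in G and C, with 33.3% to 40.9% of bases, against a median of 58.3% over the 526 tested miRNAs that have a sequence in the table. Of these 526, 71 have a GC content no higher than that of miR-223-3p and miR-146a-5p. After storage with DNase 52 of the 71 were called lower and 14 higher, and the same 2 counts were found without DNase. The 4 falling members are among the former and miR-155-5p is among the latter. Those called lower had a median GC content of 43.5% over all 526 and those called higher one of 61.9%. Across all 526 miRNAs the GC content and the change after storage with DNase had a Pearson correlation of 0.557. The miRNAs share their arrays and scaling and are not independent replicates, so this describes these arrays only.

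**Figure D4:**
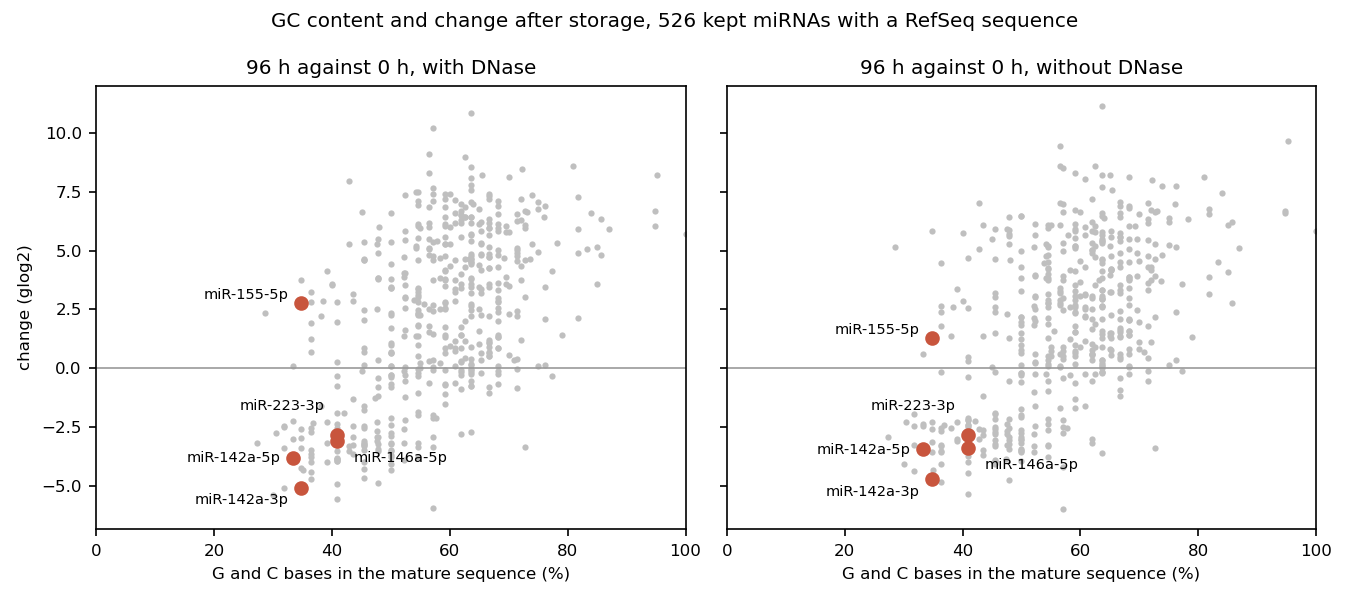
Share of G and C bases in the mature sequence (%) against the change after storage on the glog2 scale for 526 tested miRNAs, with 5 immune cell miRNAs in red. All 5 lie at the left edge between 33.3% and 40.9%, where miR-155-5p stands above 0 and the other 4 lie among the miRNAs that fell. The position of miR-155-5p in the right panel, 1.28, turned to -0.58 under vsn fitted on the tested miRNAs alone.

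The other arms of the members' hairpins gave almost no signal, whereas 2 further leukocyte miRNAs were widely detected. None of the 5 partner arms and antisense products passed the filter, and miR-150-3p was the single one detected at all, on 2 of 24 arrays, both at 96 h with DNase. Of 9 further miRNAs known from leukocytes, miR-342-3p, detected on 20 arrays, and miR-181a-5p, detected on 21, were tested. Both were called lower after storage under both preparations, miR-342-3p by -2.58 with DNase and -2.80 without and miR-181a-5p by -1.20 and -2.15. After spike-in scaling neither was called with DNase, and miR-181a-5p changed direction there, at 0.50 (adjusted p = 0.216) beside -0.94 for miR-342-3p (adjusted p = 0.0125). Without DNase the spike-in values were -0.68 for miR-181a-5p (not called) and -1.29 for miR-342-3p (called). In depleted RNA miR-342-3p changed by -1.36 (called) and miR-181a-5p by -0.23 (not called). Outside the filter, miR-181b-5p and miR-181d-5p went up with storage in unscaled units. With DNase miR-181b-5p had a mean of -0.15 at 0 h, undetected, and 4.55 at 96 h, detected on 2 of 3 arrays. miR-181d-5p had 0.03, undetected, and 5.69, detected on 1 of 3. Without DNase their 96 h means were 4.545 and 5.07, all undetected. The rest of the 9 were detected on no stored array.

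Most markers of the other liver cell types moved with the falling members on the vsn scale. After storage with DNase all 4 tested hepatocyte markers (miR-122-5p, miR-122-3p, miR-192-5p and miR-194-5p) were called lower, between -4.01 and -2.68, as were both endothelial arms of miR-126a, at -4.28 and -3.46. Of the stromal markers miR-143-3p (-3.93) and miR-199a-3p (-3.89) were called lower and miR-145a-5p was not (-0.17). Of 4 erythroid markers 3 were tested, of which miR-144-3p (-5.42) and miR-451a (-2.56) were called lower and miR-486a-5p was called higher (1.02). These calls are on the vsn scale. After spike-in scaling the median change of the hepatocyte markers was -1.46 and that of the tested members -1.50. It was -2.19 for the endothelial, -2.39 for the stromal and -0.73 for the erythroid markers, the last short of the size a call needs. The spike-in scaled means of miR-192-5p were 734 at 0 h and 405.7 at 96 h with DNase, also short of that size. The liver-defining miR-122-5p was detected on all 24 arrays, with group means from 2705 units in untreated depleted RNA to 11050 units at 0 h without DNase. Whether the cell make-up of the pieces of liver had a part in the members' changes was not tested.

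The nearest patterns over the 24 arrays differed for the falling members and for miR-155-5p. By Pearson correlation of glog2 values, the 3 tested miRNAs most like miR-142a-3p were miR-497a-5p (0.981), miR-126a-5p (0.976) and miR-199a-3p (0.975). Most like miR-142a-5p were miR-19a-3p (0.960), miR-29c-3p (0.958) and miR-106b-5p (0.957). miR-24-3p led for both miR-223-3p (0.987) and miR-146a-5p (0.984), followed for the first by miR-497a-5p (0.984) and miR-126a-3p (0.980), and for the second by miR-126a-3p (0.983) and miR-322-5p (0.981). Most like miR-155-5p were miR-6378 (0.931), miR-8105 (0.926) and miR-7005-5p (0.911), which changed by 3.91, 3.00 and 4.81 after storage with DNase and by 0.31, 0.18 and 0.20 on depletion. Between miR-155-5p and the other 4 tested members the correlation lay between -0.456 and -0.183, and among those 4 between 0.859 and 0.968. These values share arrays and scaling and describe the 24 arrays only.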

How the data were processed

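The one-colour arrays were read by the authors with Agilent Feature Extraction 10.10.1.1, per the file headers. The deposited scanner files hold background-subtracted intensity and a detection flag per miRNA, not normalized between arrays, and a deposited table holds the authors' vsn values on a log2 scale (glog2). The signal was the total gene signal where detected, otherwise the sum of the probes. The total gene signal adds up detected probes only. The vsn method was rewritten in Python 3.11.15 (numpy 2.4.6), with a lowest Pearson correlation with the deposited values of 0.999829 on any array. It was fitted to all 1881 miRNAs, and 631 detected on at least 5 arrays were tested.

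Groups came from the labels. A limma 3.58.1 fit (R 4.3.3) held 8 group means with a variance trend and no mouse term, and p-values were adjusted over the tested miRNAs within each of 11 comparisons. limma and vsn were tested on simulated data. For vsn no simulated miRNA changed between arrays, and for limma the changes were added after normalization. These tests therefore cannot show how well the stored arrays were scaled. The rank test of the study, as its methods give it, was an alternative, and its smallest p with 3 against 3 is 0.1. Arrays of a mouse share the animal, so the replicate number pairs them. Deviations from the group means correlated at 0.0914 on average between arrays of the same mouse and at -0.0449 between mice. The 8 arrays of a mouse also share a slide and a scan, which cannot be told apart from the animal.

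A bound ("at least") sets the mean of the brighter group against, per array, the higher of the lowest detected signal and the miRNA's own signal, after vsn scaling unless stated. It starts from undetected signals where an array of the brighter group did not detect the miRNA. The precision is limited by the number of arrays, 3 a group. The other scalings set a floor at the lowest detected signal, and normexp used median spot and background signals because the files hold no mean. The miRNAs described were those named, the other arms of their hairpins, lists of leukocyte and cell type miRNAs, and the 3 closest by correlation. Members and lists were chosen with earlier results of these data known. Sequences are from RefSeq (GRCm38.p6), in which 1608 of the array's miRNAs have a mature sequence.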

Additional observations from a re-analysis of the deposited data

How the results depend on the processing

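Counts are of members called. For storage (5 under each preparation), normexp gave 2 and 2, since its offset compresses dim signals, and for depletion (4) it gave 1. Vsn on the tested miRNAs gave 4 for storage under each preparation. Without DNase, both scalings to a 75th percentile, quantile normalization and a fit of the compared groups alone also gave 4, the lost call being miR-155-5p each time. Without the filter storage gave 6 and 6, with miR-150-5p added. Upper-quartile scaling kept 4 for depletion but with miR-155-5p called higher in place of miR-223-3p lower. For DNase omission at 96 h (1), no normalization gave 2, and quantile normalization, normexp and a fit of the compared groups alone gave 0. For RNase at both doses (1) upper-quartile scaling (75th percentile over miRNAs that every array detected) and quantile normalization gave 2, vsn on the tested miRNAs 4, and spike-in scaling, no normalization, normexp and no filter 0. At 0.67 U (1) these first 3 gave 2, 2 and 4, and normexp and no filter 0. At 0.026 U (0) they gave 1, 1 and 3, and scaling to the 75th percentile of all miRNAs gave 1. For stored against depleted RNA (2) the deposited values gave 1 and normexp 0. Upper-quartile scaling, spike-in scaling, no normalization, vsn on the tested miRNAs and no filter gave 3. These counts hide different members: miR-142a-3p, miR-223-3p and miR-146a-5p were called lower under upper-quartile scaling and vsn on the tested miRNAs, and miR-223-3p, miR-146a-5p and miR-155-5p higher with spike-ins and without normalization. The rank test gave 0 throughout, as 3 against 3 cannot pass. Leaving out a mouse gave 4 to 5 for storage without DNase, 0 to 2 for DNase omission at 96 h, 0 to 1 for RNase at both doses, at 0.026 U and at 0.67 U, and 1 to 2 for stored against depleted RNA. With a replicate block for the mouse the counts were 5, 5, 0, 1, 4, 0, 1, 0, 1, 0 and 2 over the 11 comparisons, and no call changed. Summing all probes on every array, an alternative chosen after seeing the data, changed no call either.

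Directions turned in several places, of which some are given here. With spike-ins miR-142a-3p changed by 0.81 for stored against depleted RNA, and miR-223-3p by 0.12 for RNase at both doses. Under vsn on the tested miRNAs miR-155-5p changed by -0.58 after storage without DNase and by -0.15 with RNase, at both doses together and at 0.67 U. Upper-quartile scaling gave it 1.60 on depletion. For RNase at both doses miR-146a-5p changed by -1.04 under that scaling and by -1.12 under vsn on the tested miRNAs. For stored against depleted RNA it changed by -2.23 and -2.13 under these, miR-142a-5p by -0.80 under the latter, and miR-223-3p by 1.62 with spike-ins and 1.88 without normalization. The causes were not tested.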
